A study of Mus musculus with 14 samples.

Results

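The collagen genes were the protein-coding genes whose symbols have the form Col, a type number, a and a chain number. There were 44 among the 54532 genes counted in mouse livers and 39 among the 16481 genes listed for mouse pancreatic stellate cells (PSCs), the fibroblast-like cells that lay down scar tissue in the pancreas. The members were divided into 11 fibrillar collagens, 8 collagens of basement membranes and 25 others. All livers came from mice bearing an orthotopic pancreatic ductal adenocarcinoma, 20 days after 100000 KPCY tumor cells in PBS with Matrigel had been injected into the tail of the pancreas. The mice were 8 to 12 weeks old and of both sexes. The WT group (n = 2) carried floxed Piezo1 alleles and was referred to as WT. The TRPV4-KO group (n = 3) lacked Trpv4 in all host tissues, whereas the injected tumor cells kept a functional gene. The GSK219 group (n = 3) was WT mice given the TRPV4 antagonist GSK2193874 by gavage at 10 mg/kg every 24 hours, and the sources used here do not say whether the WT controls received the carrier. PSCs from mouse pancreas were grown on Matrigel-coated plates. They were treated with 25 μM Yoda1, an agonist of the mechanically gated channel PIEZO1, or with DMSO, its solvent (n = 3 libraries each). Libraries with the same number in their labels are called 1 preparation here, although the labels do not say what the number stands for. The treatment time is given as 24 hours in the methods and as 72 hours in a figure legend.

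Collagens are secreted triple helices that are trimmed, assembled and crosslinked outside the cell. Fibrillar types I, III and V form the cables of scar tissue, with types V and XI setting fibril width, and type IV forms the sheet-like network of basement membranes. Beaded filaments (type VI), short-chain networks (type VIII), fibril-associated collagens (types XII and XIV) and membrane-spanning collagens (type XIII) make up much of the rest. Activated stellate cells are a main source of collagen in fibrotic pancreas and liver.

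Total counts per liver were 15567031 to 17395299, and 27312894 to 39070539 reads per PSC library were recovered from the deposited values, which were counts divided by 1 size factor per library. In 1 liver of each group, replicate 1 of the WT livers and replicate 3 of both others, Xist reads numbered 13681 to 15754 and Y-linked reads 0, and these are called the livers with Xist reads. The remaining 5, called the livers with Y-linked reads, had 2332 to 2748 Y-linked reads and 0 to 7 Xist reads. PSC preparation 3 stood apart from preparations 1 and 2 under both treatments. Trpv4 itself had 43 and 53 reads in WT livers, 15, 5 and 23 in TRPV4-KO livers and 20, 30 and 36 in GSK219 livers (WT against TRPV4-KO log2 fold change 1.71, edgeR adjusted p = 0.16). These counts cover the whole gene, so they do not show whether a deleted part was read. PSC libraries held the stellate and mesenchymal markers Vim (54463 to 102082), Des, Pdgfrb, Dcn and Lum, while Gfap, the other stellate marker looked for, was not among the genes listed for PSCs. These stellate markers summed to 99947 to 114493 with DMSO and 63222 to 75071 with Yoda1. Markers of portal fibroblasts and mesothelium (Thy1, Fbln2, Msln and Upk3b) summed to 106163 to 109403 with DMSO and 94016 to 108279 with Yoda1. PSC libraries also held epithelial markers, whose 5 members (Krt19, Krt7, Epcam, Cdh1 and Sox9) summed to 21508 to 32408 with DMSO and 17249 to 37022 with Yoda1. In these bulk samples, fewer cells of a type and less RNA per cell cannot be told apart.

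Collagen reads made up 3.17% to 3.59% of the PSC reads with DMSO and 2.02% to 2.33% with Yoda1, and the treatments did not overlap. Fibrillar collagens supplied most of these reads, at 2.49% to 2.88% with DMSO and 1.54% to 1.77% with Yoda1. Livers held far less, 0.193% to 0.217% in WT, 0.156% to 0.182% in TRPV4-KO and 0.169% to 0.223% in GSK219, with GSK219 overlapping both other groups and WT above every TRPV4-KO liver. Most of the liver share was Col18a1, which is the precursor of endostatin, at 0.118% to 0.179% of all reads. Per kilobase of gene length, Col18a1 averaged 199 CPM (counts scaled to the effective size of each library) over the 8 livers, against 7.83 for Col14a1, 7.80 for Col5a3, 7.13 for Col4a1, 6.58 for Col4a2 and 5.41 for Col3a1. In PSCs with DMSO, the highest deposited values per kilobase were 64869 for Col1a1, 14786 for Col1a2 and 12455 for Col5a2.

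**Figure D1:**
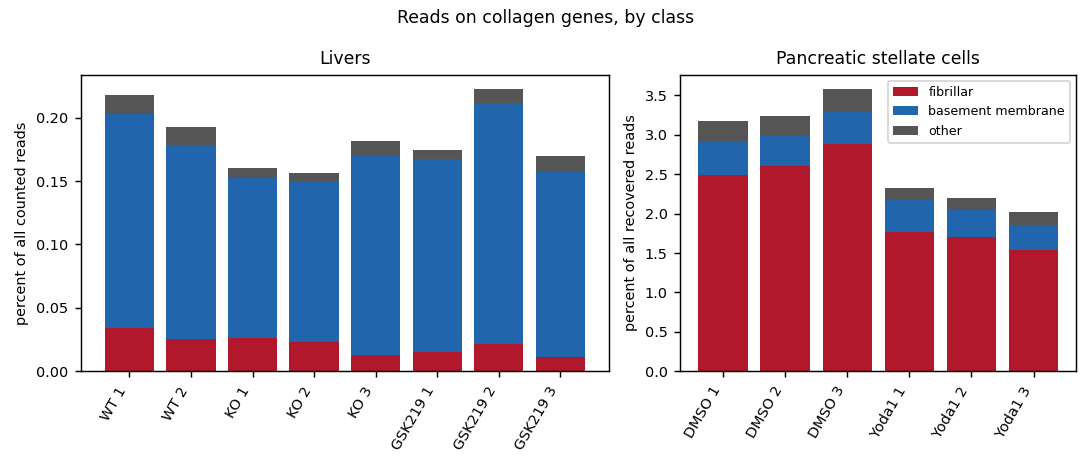
Bars give the percent of reads that fell on collagen genes in each liver (left, of all counted reads) and each PSC library (right, of all recovered reads), stacked by class. The scales differ between the panels. The PSC bars fall from 3.17% to 3.59% with DMSO to 2.02% to 2.33% with Yoda1, and basement membrane reads dominate the livers.

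To determine how PIEZO1 activation changed collagen expression in PSCs, Yoda1 was compared with DMSO by limma on log2(deposited value + 1), with Benjamini-Hochberg adjustment over the 15145 genes tested. Of the 39 listed collagens, 36 passed the filter on low values (10 or more in at least 3 libraries). Among these 36, 10 fell at an adjusted p under 0.05 and 0 rose, while 2.54% of all tested genes fell and 2.21% rose. DESeq2 on the recovered reads called 15 collagens lower and 2 higher, against 5.05% and 5.07% of all genes it tested. The median log2 fold change of the 36 was −0.63, against −0.01 over all tested genes. Of the 10, 5 were fibrillar (Col1a1, Col1a2, Col3a1, Col5a1 and Col11a1), 1 belonged to basement membranes (Col4a3) and 4 were others (Col6a3, Col8a1, Col8a2 and Col12a1). The 3 DMSO and 3 Yoda1 libraries did not overlap for 16 tested collagens that were lower and 2 that were higher with Yoda1 (15.1% and 14.9% of all tested genes). Yoda1 was below DMSO within every preparation for 27 tested collagens (29.4% of all tested genes). Each preparation number had 1 library of each treatment, and with that number as a block 21 collagens fell and 1 rose (9.16% and 8.53% of all tested genes).

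**Figure D2:**
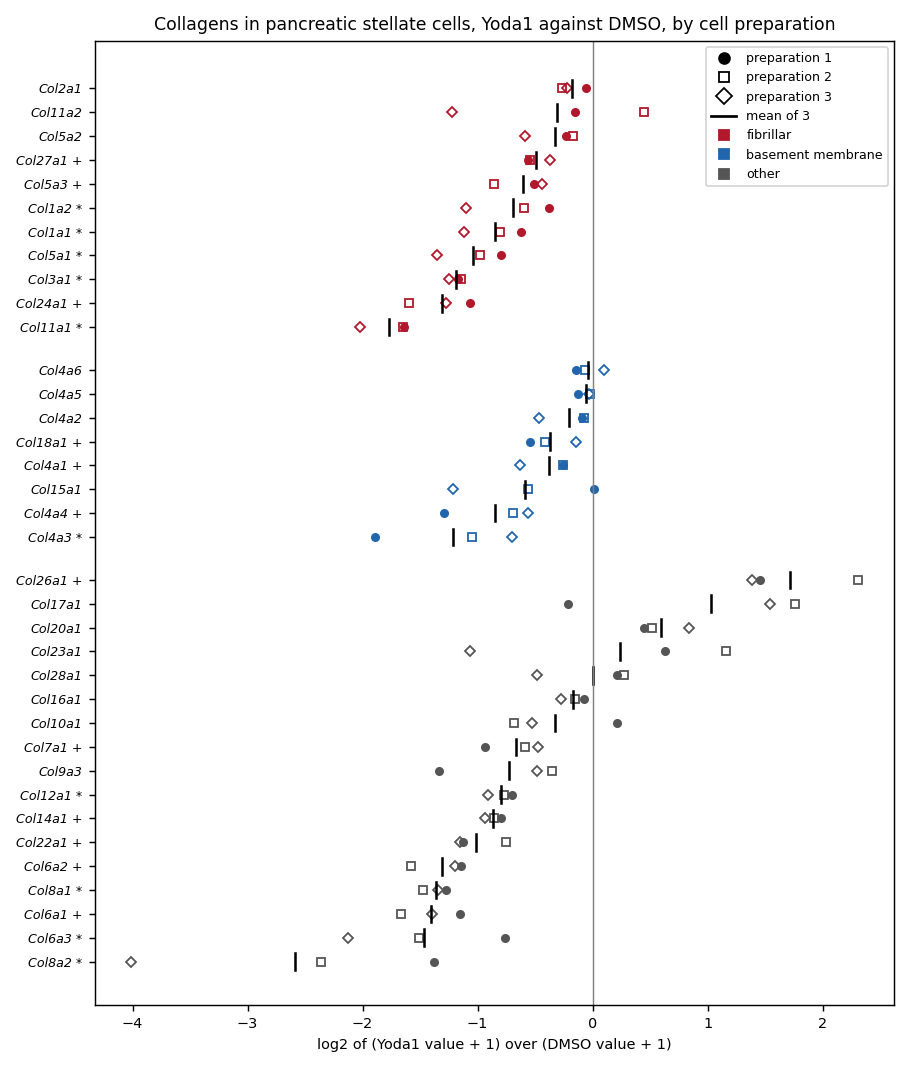
Each symbol is the log2 ratio of Yoda1 to DMSO (values + 1) in 1 preparation for the 36 tested collagens, with the mean of 3 as a black bar, grouped by class. A * marks the 10 collagens called by limma and a + the 12 called with the preparation block but not without it, and the fibrillar and basement membrane means all lie below 0.

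All 11 fibrillar collagens were tested and had a log2 fold change below 0, from −1.77 to −0.18, with a median of −0.69. The normalized count of Col1a1 was 404158, 409633 and 463416 with DMSO and 261784, 234059 and 213908 with Yoda1. Col1a1, the major chain of type I collagen (chr11:94936224-94953042, GRCm38), fell from 425736 ± 32747 to 236584 ± 24038 (SD, n = 3; log2 fold change −0.85 with SE 0.13, adjusted p = 0.020 by limma). Its partner chain also fell, and the normalized count of Col1a2 was 163639, 174175 and 213369 with DMSO and 125911, 115042 and 99354 with Yoda1. Each Yoda1 library was below every DMSO library for both chains, and Col1a2 had a log2 fold change −0.69 with SE 0.14, adjusted p = 0.045 by limma. The ratio of Col1a1 to Col1a2 reads per kilobase was 4.41 ± 0.284 with DMSO and 3.95 ± 0.113 with Yoda1 (SD, n = 3), a difference that was not tested.

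Col3a1, the single chain of type III collagen, had the smallest adjusted p among the collagens. Its normalized count was 96649.7, 105475 and 103362 with DMSO and 42962, 47792 and 43457 with Yoda1. The 3 values of each treatment lay close together, and 43.9% of the mean DMSO level was left with Yoda1 (log2 fold change −1.19 with SE 0.08, adjusted p = 0.0042, limma). Col11a1, a minor chain that nucleates thin fibrils, also fell. The normalized count of Col11a1 was 7909, 11199 and 11725 with DMSO and 2536, 3567 and 2878 with Yoda1. The mean Yoda1 level was 29.1% of the DMSO level (log2 fold change −1.77 with SE 0.18, adjusted p = 0.0096, limma). Col5a1, the main chain of the type V collagen that sits in the core of fibrils, fell from 65146 ± 14843 to 31127 ± 817 (SD, n = 3; log2 fold change −1.04 with SE 0.15, adjusted p = 0.019, limma). Its 3 Yoda1 values were nearly equal, whereas DMSO preparation 3 was above the other DMSO libraries.

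The other fibrillar chains were mostly not called. Col5a2 had 117381, 117192 and 123793 with DMSO and 100126, 104240.2 and 82254 with Yoda1, which did not overlap and was called by DESeq2 (adjusted p = 0.047) but not by limma (log2 fold change −0.33 with SE 0.11, adjusted p = 0.14). Col24a1, a chain first described in developing bone and eye, was low at 86.0, 96.5 and 36.3 with DMSO and 40.4, 31.3 and 14.4 with Yoda1. The treatments overlapped, preparation 3 being low under both, and Col24a1 was called with the preparation block but not without it (limma log2 fold change −1.31, adjusted p = 0.19, and 0.011 with the preparation block). Col5a3 and Col27a1 were likewise called with the block but not without it (log2 fold changes −0.60 and −0.49, limma adjusted p = 0.011 and 0.0079). Col2a1 and Col11a2, cartilage collagens, were near the limit of the filter and were not called by either fit.

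The promoters of 4 of the lowered collagens are shown because these members fell together. RefSeq (GRCm38.p6) gave a promoter for 35 of the 44 members. Each sequence below is the 250 bases before the annotated start, 5′ to 3′ on the strand of the gene, with matches to 6 short motifs on either strand in capitals.
Col3a1 (chr1:45311288-45311537, + strand): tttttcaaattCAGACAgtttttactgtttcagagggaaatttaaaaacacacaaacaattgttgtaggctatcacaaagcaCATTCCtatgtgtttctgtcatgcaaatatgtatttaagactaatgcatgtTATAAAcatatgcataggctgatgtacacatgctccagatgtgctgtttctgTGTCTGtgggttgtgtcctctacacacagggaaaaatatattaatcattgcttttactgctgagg
Col11a1 (chr3:114030290-114030539, + strand): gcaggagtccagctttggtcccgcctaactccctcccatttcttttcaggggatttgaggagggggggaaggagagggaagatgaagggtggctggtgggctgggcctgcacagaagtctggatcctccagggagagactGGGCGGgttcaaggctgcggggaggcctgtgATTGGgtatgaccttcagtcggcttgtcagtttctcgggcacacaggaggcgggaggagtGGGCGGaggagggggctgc
Col8a1 (chr16:57754738-57754987, − strand): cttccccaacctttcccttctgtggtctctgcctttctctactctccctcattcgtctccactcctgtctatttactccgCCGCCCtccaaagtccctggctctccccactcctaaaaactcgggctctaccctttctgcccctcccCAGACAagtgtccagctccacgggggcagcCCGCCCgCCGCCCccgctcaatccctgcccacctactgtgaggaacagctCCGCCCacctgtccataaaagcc
Col5a1 (chr2:27886175-27886424, + strand): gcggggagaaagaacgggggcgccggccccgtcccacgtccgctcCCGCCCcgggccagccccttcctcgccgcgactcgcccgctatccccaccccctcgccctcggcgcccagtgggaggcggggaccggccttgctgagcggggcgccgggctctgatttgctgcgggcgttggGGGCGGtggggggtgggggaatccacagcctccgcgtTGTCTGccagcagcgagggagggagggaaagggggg
The motifs were CCAAT (the CCAAT box), TATAAA (the TATA box), GGGCGG (the GC box), TGANTCA (named for AP-1), GGAATG (named for TEAD factors) and CAGACA (named for SMAD factors), none of which lies within another. The 4 windows differed in composition, with 35.2% G and C in Col3a1, 62.4% in Col11a1, 60.8% in Col8a1 and 76.4% in Col5a1. GGGCGG occurred in the promoters of 5 of the 7 lowered collagens that had one and in 21 of the 35 collagens, against 32.7% of 32851 promoters. CAGACA occurred in 4 of the 7 and 9 of the 35, against 17.1% of all promoters. CCAAT was in 2 of the 7 (33.8% of all), TATAAA in 1 (12.4%), GGAATG in 1 (12.6%) and TGANTCA in 0 (6.75%). These are matches of letters in short windows and were not tested.

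**Figure D3:**
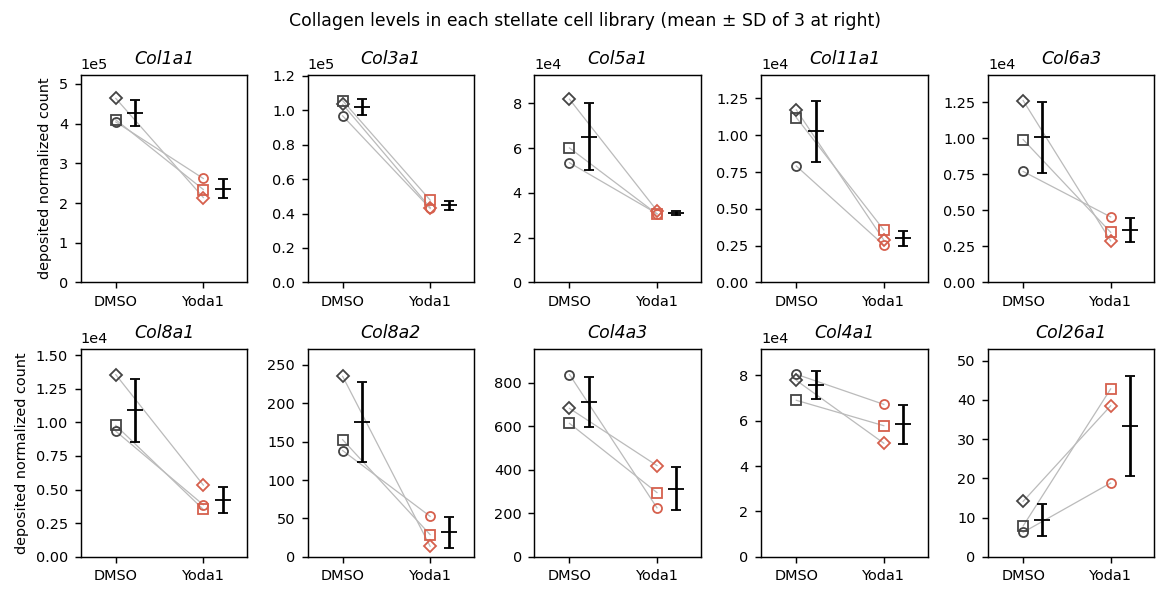
Deposited normalized counts of 10 collagens in each PSC library (circle, square and diamond for preparations 1, 2 and 3, joined by grey lines), with the mean ± SD of 3 beside each treatment. Every Yoda1 library of Col3a1 and Col11a1 lies below every DMSO library, and Col26a1 was the one shown that was higher with Yoda1.

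Basement membrane collagens had log2 fold changes below 0 in all 8 members tested, with a median of −0.38. Type IV collagen has 6 chains, encoded in 3 head-to-head pairs. Col4a1 and Col4a2, the chains of the ubiquitous network, overlap by 22 bases at their starts on chromosome 8. The normalized count of Col4a1 was 80438, 68960.2 and 77731 with DMSO and 67160.1, 57759.7 and 50041 with Yoda1. The treatments did not overlap for Col4a1, which was called with the block but not without it (log2 fold change −0.38, limma adjusted p = 0.14, and 0.044 with the preparation block), and Col4a2 was called by neither (log2 fold change −0.21 with SE 0.12, adjusted p = 0.34, limma).

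The largest log2 fold changes of the class were those of Col4a3 and Col4a4, which are best known from the filtration barrier of the kidney. The normalized count of Col4a3 was 837, 612 and 681 with DMSO and 225, 295 and 419 with Yoda1. Its decrease was deepest in preparation 1, and all Yoda1 libraries were below all DMSO libraries (log2 fold change −1.22 with SE 0.23, adjusted p = 0.039, limma). Col4a4 had 532, 459.9 and 553 with DMSO and 216, 284 and 374 with Yoda1, again without overlap (log2 fold change −0.85, limma adjusted p = 0.067, and 0.018 with the preparation block), and was called by DESeq2 (adjusted p = 0.0035). The starts of this pair lie 71 bases apart on chromosome 1, and the stretch between them is shown because it is all that separates the genes. It is printed on the + strand, towards Col4a3, and held none of the 6 motifs.
Col4a4-Col4a3 (chr1:82586850-82586920, GRCm38.p6): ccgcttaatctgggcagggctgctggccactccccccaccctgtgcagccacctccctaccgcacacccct
Col4a5 and Col4a6, the X-linked pair, had log2 fold changes of −0.06 and −0.04 (limma adjusted p = 0.87 and 0.97). The collagens that carry endostatin-like domains had log2 fold changes of −0.59 (Col15a1) and −0.37 (Col18a1), of which Col18a1 was called with the block but not without it (limma adjusted p = 0.034).

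Among the other collagens, both type VIII chains fell. Type VIII collagen forms hexagonal networks under endothelium. The normalized count of Col8a1 was 9335, 9768 and 13543 with DMSO and 3862, 3521 and 5330.4 with Yoda1. Col8a1 fell in every preparation by a similar factor, to 38.9% of its mean DMSO level (log2 fold change −1.36 with SE 0.20, adjusted p = 0.018, limma). The normalized count of Col8a2 was 138, 153 and 235 with DMSO and 52.7, 28.8 and 13.6 with Yoda1. Col8a2 was far less abundant and had the largest log2 decrease of any tested collagen, 18.1% of its mean level being left (log2 fold change −2.59 with SE 0.48, adjusted p = 0.034, limma). Its log2 ratio ranged from −4.01 in preparation 3 to −1.38 in preparation 1.

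The type VI chains Col6a1, Col6a2 and Col6a3, which form beaded filaments around cells, are described next. Col6a3 had 7695, 9906 and 12611 with DMSO and 4542, 3479 and 2882 with Yoda1 (log2 fold change −1.47 with SE 0.22, adjusted p = 0.020, limma). Col6a1 had 4978, 4989 and 2343 with DMSO and 2237, 1573 and 888 with Yoda1 (log2 fold change −1.41, limma adjusted p = 0.11, and 0.0023 with the preparation block). Col6a2 had a log2 fold change of −1.31 (limma adjusted p = 0.11, and 0.0024 with the preparation block). Preparation 3 had less Col6a1 and Col6a2 but more Col6a3 than the others with DMSO, and neither Col6a1 nor Col6a2 overlapped between treatments. Both were called by DESeq2 (adjusted p = 0.0029 and 0.0023).

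Col12a1, a fibril-associated collagen, fell from 57074 ± 7129 to 32779 ± 2109 (SD, n = 3; log2 fold change −0.79 with SE 0.10, adjusted p = 0.015, limma). Its relative Col14a1 had nearly the same ratio in every preparation (−0.80, −0.86 and −0.93 on the log2 scale) and was called with the block but not without it (limma adjusted p = 0.081, and 0.0032 with the preparation block), and by DESeq2. Col7a1, of the anchoring fibrils, and Col22a1 were also called with the block but not without it (log2 fold changes −0.67 and −1.01, limma adjusted p = 0.012 and 0.027). A further fibril-associated member, Col16a1, had a log2 fold change of −0.17 (limma adjusted p = 0.37). Of the 17 tested others, 4 had a log2 fold change above 0.

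The members above 0 were all of low abundance. Col26a1, a short collagen with an EMI domain, had 6.23, 7.85 and 14.1 with DMSO and 18.8, 42.8 and 38.5 with Yoda1. It was higher with Yoda1 in every preparation, without overlap, and was called with the block but not without it (log2 fold change 1.71, limma adjusted p = 0.075, and 0.018 with the preparation block), and by DESeq2. Col13a1, a membrane-spanning collagen, had 3.74, 4.49 and 3.03 with DMSO and 9.41, 24.7 and 34.5 with Yoda1. It did not pass the filter and was not tested by limma, but its treatments did not overlap, and DESeq2 on the recovered reads called it higher (log2 fold change 2.62, adjusted p = 0.0098). Col13a1 had 3, 4 and 3 reads with DMSO, and this small number limits its precision. Col20a1 was also higher with Yoda1 in all 3 preparations (log2 fold change 0.60 with SE 0.19, adjusted p = 0.13, limma), which did not pass the test.

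All 10 called collagens were also called with preparations 1 and 2 alone (10.3% of all tested genes were then lower), by DESeq2 and by edgeR on the recovered reads (2.31%). For 8 of the 10 the drop was largest in preparation 3, the preparation that stood apart, as for Col6a3, whose log2 ratios of Yoda1 to DMSO were −0.76, −1.51 and −2.13 in preparations 1, 2 and 3. The exceptions were Col4a3, with the largest drop in preparation 1, and Col8a1, with it in preparation 2. Without DMSO replicate 2, however, the count of lowered collagens dropped from 10 to 1 (0.18% of all tested genes), and without Yoda1 replicate 2 to 2 (0.153%).

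The enzymes and receptors that act on collagen were described from a list of 50 genes, of which 48 were tested in PSCs. Of these, 11 fell and 2 rose (2.54% and 2.21% of all tested genes), and the median log2 fold change was −0.33, against −0.01 over all tested genes. With the block, 23 fell and 4 rose (9.16% and 8.53% of all tested genes). Among folding and modifying factors, 5 of 20 fell and 0 rose (8 and 0 with the block), including Creb3l1, an ER-bound activator of collagen genes, with −0.78 (adjusted p = 0.013), P4ha3, a prolyl hydroxylase subunit, with −1.01 (adjusted p = 0.019), Plod2, a lysyl hydroxylase, with −0.58 (adjusted p = 0.040) and the chaperone Fkbp14 with −0.41 (adjusted p = 0.016), all as log2 fold changes by limma. Of 7 factors that cleave propeptides or assist this, Tll1 and Pcolce fell, by limma log2 fold changes of −0.85 (adjusted p = 0.0098) and −0.34 (adjusted p = 0.018), and Adamts14 rose, at 0.62 (adjusted p = 0.040). With the block, 5 of these 7 fell and 1 rose. Loxl2, with −0.89 (adjusted p = 0.040), was the one of 5 crosslinking enzymes called by limma, while 4 of the 5 fell with the block.

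The collagen-degrading enzymes moved in both directions. Mmp13, a secreted collagenase, had 64.8, 75.2 and 42.4 with DMSO and 550.3, 807 and 1597 with Yoda1, and its limma log2 fold change was 3.89 (adjusted p = 0.0096). Mmp14, the membrane-bound collagenase, fell, with −0.87 (adjusted p = 0.0096). These were the called members among 8 genes of collagen cleavage and uptake, of which 3 fell and 2 rose with the block, Fap being the second that rose. Of 8 receptors, Ddr1 and Itga1, the α chain of a collagen-binding integrin, fell by limma with log2 fold changes of −0.63 (adjusted p = 0.015) and −1.56 (adjusted p = 0.023). With the block, 3 receptors fell and 1, Itga2, rose. All 4 myofibroblast markers fell as well, Acta2 with −1.70 (adjusted p = 0.016), Tagln with −1.22 (adjusted p = 0.0068), Myl9 with −1.28 (adjusted p = 0.0096) and Cnn1 with −1.46 (adjusted p = 0.012) by limma. Vim and Pdgfrb were lower with Yoda1, with log2 fold changes of −0.70 (adjusted p = 0.017) and −0.61 (adjusted p = 0.028), whereas Des was not called, with 0.07 (adjusted p = 0.89) by limma. Of 4 markers of portal fibroblasts and mesothelium, 0 fell and Msln, a mesothelial marker, rose, with 0.96 (adjusted p = 0.0092) by limma. Of 4 endothelial markers, Kdr fell, with −1.07 (adjusted p = 0.028) by limma, and 0 rose. Dcn and Lum were called lower with the block but not without it. None of 5 epithelial and none of 5 acinar markers was called, and the summed acinar markers ranged from 1034 to 6106 with DMSO and from 1276 to 12346 with Yoda1, preparation 3 being highest in each. The part of these markers in the collagen result was not tested.

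For livers, 1 edgeR quasi-likelihood fit took in all 8 libraries, with adjustment over 15118 genes tested. Of the 44 members, 28 passed the filter on low counts. The other 16 had at most 13 reads in a liver, and Col9a1, Col11a1, Col19a1 and Col26a1 had 0 in all 8. A count of 0 allows up to 3 reads, or 0.172 to 0.193 CPM per liver when scaled to the total count in place of the effective library size, and covers counting error only. No collagen was called between WT and TRPV4-KO livers in either direction, where 0.165% of all tested genes were higher and 0.126% lower in WT. At an unadjusted p under 0.05 there were 8 collagens higher and 0 lower in WT, against 9.5% and 7.61% of all tested genes. DESeq2 called 4 collagens higher and 0 lower, against 3.09% and 2.15% of all genes. The log2 fold change was above 0 for 23 of the 28, with a median of 0.53, against −0.01 over all tested genes. Against GSK219, again 0 collagens were called, as were 0% of all genes higher and 0% lower in WT. At an unadjusted p under 0.05 there were 8 higher and 0 lower, against 5.87% and 2.34% of all tested genes. DESeq2 called 1 higher and 0 lower, against 0.505% and 0.194%. The log2 fold change was above 0 for 22 of the 28, and the median was 0.54. Both comparisons used the same 2 WT livers.

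**Figure D4:**
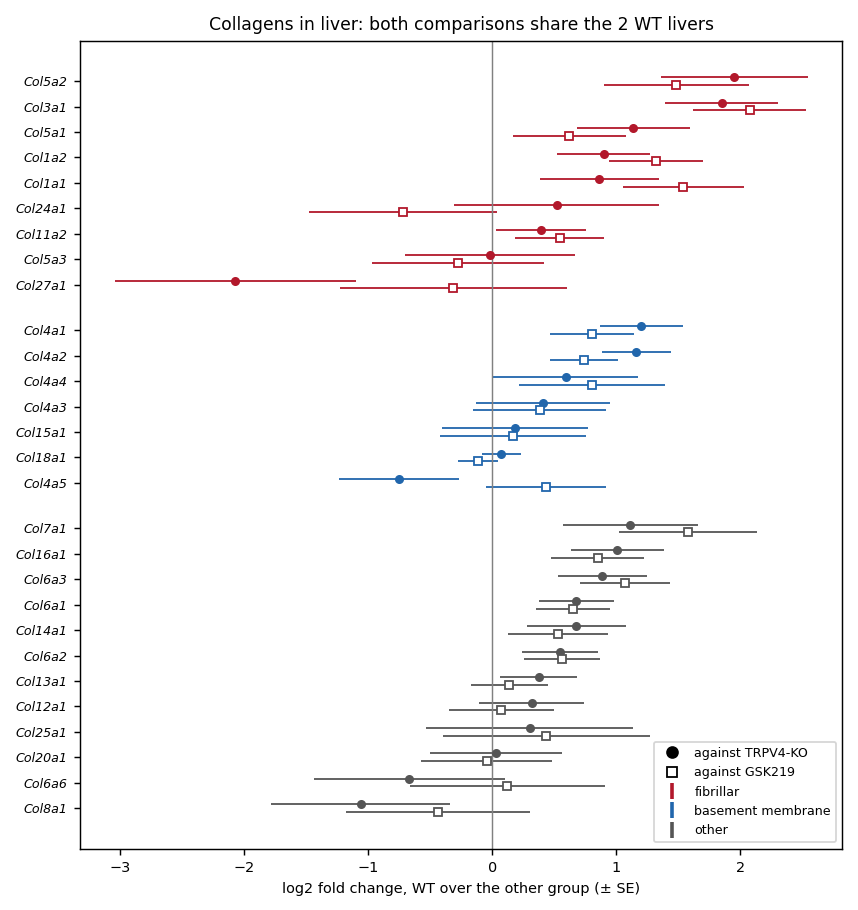
Points give the log2 fold change ± SE (edgeR) of WT over TRPV4-KO (filled circles) and WT over GSK219 (open squares) for the 28 tested collagens, by class. None passed an adjusted p of 0.05, and most points lie above 0 in both comparisons, which share the WT livers.

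Among fibrillar collagens, Col3a1 had a high log2 fold change in both comparisons. Col3a1 was 168 and 71.5 in WT, 41.0, 18.8 and 40.0 in TRPV4-KO and 22.8, 38.5 and 24.03 in GSK219 livers, in CPM. Both WT livers were above every other liver, although WT replicate 1 was well above WT replicate 2. The edgeR log2 fold change of Col3a1 was 1.85 (SE 0.45, adjusted p = 0.14) against TRPV4-KO and 2.07 (SE 0.45, adjusted p = 0.41) against GSK219. Without WT replicate 1 these were 1.12 and 1.32. Col5a2 was 32.2 and 9.56 in WT, 5.06, 3.37 and 7.70 in TRPV4-KO and 3.65, 9.97 and 8.73 in GSK219 livers, and its WT replicate 2 lay within the GSK219 range. Its log2 fold change was 1.95 (SE 0.59, adjusted p = 0.18) against TRPV4-KO and 1.48 (SE 0.59, adjusted p = 0.57) against GSK219. For Col5a2 the WT livers decided the size, with 0.84 and 0.36 without WT replicate 1 and 2.59 and 2.11 without WT replicate 2.

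Col1a1 was 29.4 and 16.6 in WT, 19.98, 8.16 and 9.78 in TRPV4-KO and 6.17, 12.2 and 5.32 in GSK219 livers. TRPV4-KO replicate 1 was within the WT range, while every GSK219 liver was below it, and the edgeR log2 fold changes were 0.86 (SE 0.48, adjusted p = 0.41) and 1.54 (SE 0.49, adjusted p = 0.54) against TRPV4-KO and GSK219. Under the alternatives these ran from 0.24 (with the Y-linked livers only) to 1.36 (without TRPV4-KO replicate 1) and from 0.84 (with the Y-linked livers only) to 2.00 (without GSK219 replicate 2), and without WT replicate 1 they were 0.40 and 1.06. Col1a2 was 39.2 and 29.1 in WT, 26.9, 10.9 and 17.0 in TRPV4-KO and 9.94, 18.4 and 12.7 in GSK219 livers. Both WT livers were above all others, with edgeR log2 fold changes of 0.90 (SE 0.38, adjusted p = 0.28) and 1.32 (SE 0.38, adjusted p = 0.53). In WT livers the ratio of Col1a1 to Col1a2 reads per kilobase was 1.25 ± 0.243 (SD, n = 2).

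Col4a1 and Col4a2 had the smallest adjusted p values of the basement membrane class. Col4a1 was 99.3 and 70.3 in WT, 33.0, 23.1 and 54.4 in TRPV4-KO and 38.2, 54.3 and 53.0 in GSK219 livers, in CPM, and Col4a2 was 74.0 and 61.7 in WT, 28.5, 20.7 and 41.8 in TRPV4-KO and 32.8, 47.5 and 41.5 in GSK219 livers. For both genes each WT liver was above every other liver, and the lowest 2 values were TRPV4-KO replicates 1 and 2. The edgeR log2 fold changes against TRPV4-KO were 1.20 (SE 0.34, adjusted p = 0.16) for Col4a1 and 1.16 (SE 0.28, adjusted p = 0.12) for Col4a2. Against GSK219 they were 0.81 (SE 0.34, adjusted p = 0.59) and 0.74 (SE 0.28, adjusted p = 0.57). Both were called, with WT above TRPV4-KO, when a term for the sex reads was added (2.3% of all tested genes) and without TRPV4-KO replicate 3 (5.02%). Col18a1, the most abundant, was not called, at 0.07 (SE 0.16, adjusted p = 0.86) and −0.11 (SE 0.16, adjusted p = 0.93), on the log2 scale by edgeR. Col4a5 was the basement membrane member below 0 against TRPV4-KO, at −0.75 (SE 0.49, adjusted p = 0.47), and Col4a4 was above 0 against GSK219, at 0.80 (SE 0.59, adjusted p = 0.80) by edgeR.

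**Figure D5:**
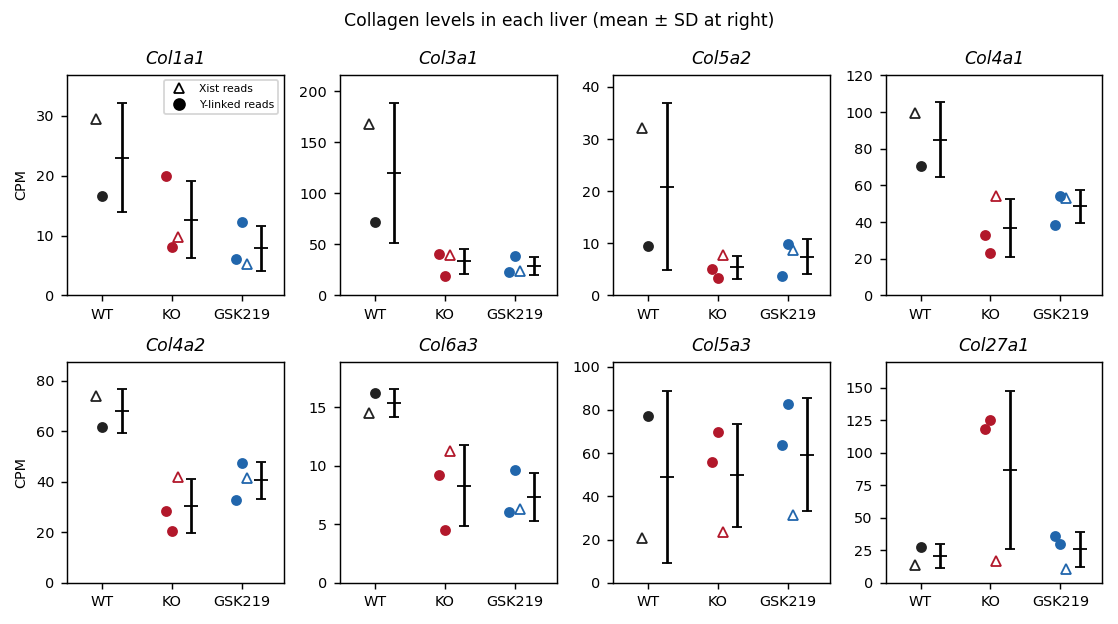
CPM of 8 collagens in each liver, with filled circles for livers with Y-linked reads, open triangles for livers with Xist reads and the mean ± SD beside each group (n = 2 WT, 3 TRPV4-KO and 3 GSK219). Col4a1, Col4a2, Col3a1 and Col6a3 are highest in both WT livers, Col5a3 follows the sex reads, and Col27a1 is high in 2 TRPV4-KO livers.

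Of the other collagens, the type VI chains Col6a1, Col6a2 and Col6a3 were above 0 in both comparisons, while a further type VI chain, Col6a6, was at −0.67 (SE 0.77, adjusted p = 0.71) against TRPV4-KO and 0.12 (SE 0.78, adjusted p = 0.99) against GSK219 by edgeR. Col6a3 was 14.5 and 16.2 in WT, 9.17, 4.47 and 11.2 in TRPV4-KO and 6.04, 9.67 and 6.28 in GSK219 livers, in CPM, and WT did not overlap the rest. Its edgeR log2 fold change was 0.89 (SE 0.36, adjusted p = 0.26) against TRPV4-KO and 1.07 (SE 0.36, adjusted p = 0.54) against GSK219. For Col6a1 the values were 0.68 (SE 0.30, adjusted p = 0.30) and 0.65 (SE 0.30, adjusted p = 0.63), and for Col6a2 0.54 (SE 0.31, adjusted p = 0.41) and 0.56 (SE 0.31, adjusted p = 0.70) by edgeR. Col7a1 rested on few reads, 22 and 25 in WT, 9, 17 and 5 in TRPV4-KO and 5, 8 and 10 in GSK219 livers, and had log2 fold changes of 1.11 (SE 0.54, adjusted p = 0.34) and 1.58 (SE 0.56, adjusted p = 0.54) by edgeR. Col16a1 had 1.01 (SE 0.37, adjusted p = 0.23) and 0.85 (SE 0.37, adjusted p = 0.61). Col8a1, which fell in PSCs with Yoda1, had only 3 and 8 in WT, 13, 4 and 17 in TRPV4-KO and 4, 10 and 8 in GSK219 livers, as read counts, and log2 fold changes of −1.06 (SE 0.72, adjusted p = 0.50) and −0.43 (SE 0.74, adjusted p = 0.94) by edgeR. Col11a1 had 0 reads in every liver.

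Both WT livers were above every TRPV4-KO liver for 11 of the 28 tested collagens and below every one for 0, against 17.7% and 15.5% of all tested genes. They were above every GSK219 liver for 11 and below for 0, against 15.6% and 11.7%. In both sets were 10 collagens, namely Col1a2, Col3a1, Col4a1, Col4a2, Col5a1, Col6a1, Col6a3, Col7a1, Col14a1 and Col16a1. The collagens that DESeq2 called higher in WT were Col3a1, Col4a1, Col4a2 and Col5a2 against TRPV4-KO and Col3a1 against GSK219. When livers with Xist reads and livers with Y-linked reads were each compared among themselves, WT was above TRPV4-KO in both for 17 of the 28 and above GSK219 in both for 17, against 31.4% and 30.4% of all tested genes. Between TRPV4-KO and GSK219 livers 0 collagens were called, where 0.0595% of all tested genes were higher and 0.0463% lower in TRPV4-KO, and 1 collagen of 28, Col4a5, had an unadjusted p under 0.05 and was higher in TRPV4-KO, near the 3.48% of all tested genes, with an edgeR log2 fold change of 1.19 (SE 0.43, adjusted p = 0.73).

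Of the 50 genes that act on collagen, 42 were tested in livers, and 0 were called against either group, where 0.165% of all tested genes were higher and 0.126% lower in WT than in TRPV4-KO and 0% either way against GSK219. The log2 fold change was above 0 for 34 against TRPV4-KO (median 0.48) and for 37 against GSK219 (median 0.43), while 48.8% and 49.7% of all tested genes were above 0. Marker genes of several, but not all, listed cell types also had higher values in WT livers. Portal fibroblast and mesothelium markers summed to 10.8 to 15.8 CPM in WT, 8.03 to 12.2 in TRPV4-KO and 8.24 to 9.85 in GSK219 livers. Epithelial markers summed to 56.4 to 97.0, 37.9 to 68.2 and 67.8 to 83.8. Myofibroblast markers summed to 4.31 to 8.17, 2.47 to 3.76 and 4.12 to 5.10. The acinar sums of WT livers overlapped both other groups. All 6 hepatic stellate cell markers had log2 fold changes above 0 in both comparisons, and their summed CPM was 365 to 434 in WT, 135 to 313 in TRPV4-KO and 206 to 363 in GSK219 livers. All 4 macrophage markers were also above 0, with sums of 839.9 to 885, 231 to 486 and 234 to 561 CPM. The 5 endothelial markers summed to 365 to 409, 216 to 344 and 265 to 362. Neutrophil markers summed to 36.3 to 43.2 CPM in WT, 0.885 to 5.15 in TRPV4-KO and 1.76 to 3.77 in GSK219 livers, and among these sets only the neutrophil marker S100a8 was called, against TRPV4-KO (edgeR log2 fold change 3.67, SE 0.47, adjusted p = 0.028). In contrast, the 4 hepatocyte markers (Alb, Apoa1, Ttr and Cyp2e1) summed to 45924 to 59594 CPM in WT, 70006 to 89941 in TRPV4-KO and 69061 to 78719 in GSK219, with WT below both. Of these 4, only Apoa1 had log2 fold changes above 0 in the 2 comparisons, and none of the 4 was called in either (edgeR). The part of these markers in the collagen values was not tested.

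Some collagens differed between livers with Y-linked and with Xist reads. This was tested, after the values had been seen, as the term for Y-linked against Xist reads in an edgeR fit that kept the groups. Of the 28 tested collagens, 3 were higher with Y-linked reads and 0 lower, against 1.48% and 1.99% of all tested genes. Col5a3, a type V chain, had 20.7 and 77.2 in WT, 55.8, 70.0 and 23.4 in TRPV4-KO and 63.7, 82.8 and 31.5 in GSK219 livers, in CPM. Within every group, the liver with Xist reads was the lowest, and the log2 difference was 1.47 (SE 0.16, adjusted p = 0.0018) by edgeR. Col25a1, a membrane-spanning collagen, had 19 and 67 in WT, 25, 60 and 13 in TRPV4-KO and 41, 42 and 9 in GSK219 livers, as read counts, and a log2 difference of 1.93 (SE 0.36, adjusted p = 0.028) by edgeR.

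Col27a1, a fibrillar chain known from cartilage, had 13.9 and 27.3 in WT, 119, 125 and 16.5 in TRPV4-KO and 36.3, 30.2 and 10.4 in GSK219 livers, in CPM. The livers with Xist reads were the lowest of their groups, and TRPV4-KO replicates 1 and 2 were far above all other livers. Its log2 difference was 1.91 (SE 0.34, adjusted p = 0.033) for Y-linked against Xist reads and −2.07 (SE 0.97, adjusted p = 0.35) for WT against TRPV4-KO by edgeR. Among the 5 livers with Y-linked reads alone, Col27a1 was called lower in WT than in TRPV4-KO and higher in TRPV4-KO than in GSK219 (edgeR log2 fold changes −2.15 and 1.86, adjusted p = 0.0036 and 0.0016), along with 1.15% and 0.97% of all tested genes. That comparison had 1 WT liver, whose spread was taken to be that of the other groups.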

How the data were processed

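RNA was sequenced from 8 livers and 6 stellate cell libraries, grouped by their labels. For livers, the authors deposited raw counts per gene. The table holds 7 more count columns whose names fit none of the samples, and these were left aside. For PSCs, the deposited signal was the count divided by 1 size factor per library: 100% of the 98886 values were whole reads (tolerance 0.001 reads, widened in proportion to the count for large counts). The deposited log2 fold changes, test score and p-values of the authors' own comparison were not used. HISAT2 2.0.5 and Trim Galore are listed in the submitters' processing notes. The counting tool is not given in the sources used here.

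Livers were tested with edgeR 4.0.16 (quasi-likelihood, TMM, filterByExpr with a minimum count of 10), and PSCs with limma 3.58.1 on log2(value + 1), which understates changes of low genes. DESeq2 1.42.0 was an alternative (R 4.3.3). P-values were adjusted over all tested genes, and the fits were run on simulated data. The simulation gave every gene the same spread, smaller than that of the livers, and no effect of sex or preparation. It therefore does not show how the tests behave with the spread of these data. PSC libraries that shared a number in their labels were taken as 1 preparation, which the labels do not state. Same-numbered libraries deviated together (r = 0.43, 0.26 and 0.53), so a fit with a preparation block is given beside the results it changes. Alternatives were another scaling, filter, pseudocount or tool, the block, a term for sex reads, and leaving out each library.

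The members and gene lists were chosen with earlier results of these data known. Named were called members, 10 fixed members (Col1a1, Col1a2, Col3a1, Col4a1, Col4a2, Col6a1, Col6a2, Col6a3, Col8a1 and Col11a1), the 3 largest log2 fold changes of each class and up to 12 called genes that act on collagen. Other collagens named, among them Col2a1, Col5a3, Col6a6, Col7a1 in PSCs, Col11a2, Col13a1, Col14a1, Col18a1, Col20a1, Col22a1 and Col25a1, and the genes Fap, Itga2, Kdr, Msln, Apoa1 and S100a8, were chosen after their values were seen, as was the test of sex reads. Floors cover counting error only.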

Additional observations from a re-analysis of the deposited data

How the results depend on the processing

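Of the collagens lower with Yoda1, 10 were called, 21 with the replicate block, which pairs the preparations, and 19 with preparations 1 and 2 only, a choice made after seeing the data. Leaving out 1 PSC library gave 1 (without DMSO replicate 2) to 12 (without Yoda1 replicate 3), with 2 without Yoda1 replicate 2, 4 without DMSO replicate 1, and 6 without DMSO replicate 3 or Yoda1 replicate 1. Each of these fits has fewer samples. Collagens higher with Yoda1 numbered 2 by DESeq2 (Col13a1 and Col26a1) and 1 with the replicate block (Col26a1), against 0. Over all genes, lower and higher calls with Yoda1 were 385 and 334, but 783 and 787 by DESeq2, 1388 and 1292 with the block, 1509 and 1323 with preparations 1 and 2 only, and 23 to 545 and 15 to 444 without 1 library.

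Called collagens with WT above TRPV4-KO numbered 4 by DESeq2, 2 with a term for sex reads and 0 to 2 without 1 liver, the 2 being Col4a1 and Col4a2 without TRPV4-KO replicate 3, against 0. Those lower in WT numbered 1 with the replicate block and 1 with only the livers that had Y-linked reads, in each case Col27a1. DESeq2 called 1 collagen higher in WT than in GSK219 livers, and the Y-linked livers alone gave 1 between TRPV4-KO and GSK219. The log2 fold change of Col8a1 for WT against GSK219 was −0.43 with all livers, −1.24 to 0.059 when 1 liver was left out (0.059 without WT replicate 1) and 0.11 with the Y-linked livers only, and was never called. Over the fits, the log2 fold change for WT against TRPV4-KO ran from −1.84 to −0.21 for Col8a1 and from −2.63 to −1.41 for Col27a1. The causes were not tested. Over all genes, 25 were higher and 19 lower in WT than in TRPV4-KO livers, but 461 and 321 by DESeq2, 124 and 74 with no filter, 394 and 137 with the block, 347 and 188 with the sex term, 11 and 9 with only the groups compared, 243 and 175 with the Y-linked livers, and 2 to 750 and 1 to 541 without 1 liver. Against GSK219, 0 and 0 became 78 and 30 by DESeq2, 8 and 1 with no filter, 9 and 0 with the block, 2 and 2 with the sex term, 2 and 0 with only the groups compared and 4 and 2 with the Y-linked livers. Liver replicate numbers did not pair the livers (r from −0.54 to 0.61), so the liver block carries no design information.

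Only 2 WT livers were available, and Col7a1, Col8a1 and Col25a1 rested on few reads in livers. In PSCs, Col2a1, Col11a2, Col13a1, Col20a1, Col22a1, Col24a1 and Col26a1 rested on few reads, as did Col8a2 with Yoda1 (56, 35 and 17 reads).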
